A study of Mus musculus with 16 samples.

Results

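Genes known to respond to androgen in the mouse kidney were followed in kidneys that lack, by their labels, the peroxisomal multifunctional protein MFP2. The set was defined by name and holds Cyp2d9, Hsd3b4, Odc1 and Kap. It was drawn up with the comparison of mutant and pool already known, in which Cyp2d9 and Hsd3b4 stood among the genes with the smallest p. Values of the whole set in that comparison are therefore a description and carry no test. Of the 4 genes, 3 were measured, each by 1 probe, among 16140 tested rows of the array (9846 genes and 6294 unnamed probes). Kap was under none of the named probes and was not analysed here.

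The mutant group was 4 male mice labelled MFP2-/-, aged 15 weeks, and the control was 1 RNA pool of 5 male wild-type mice of the Swiss strain SWR/Ola Hsd, also 15 weeks old. MFP2 is encoded by Hsd17b4, an enzyme of peroxisomal beta-oxidation that was also described as a 17-beta-hydroxysteroid dehydrogenase. The labels give neither the allele nor the strain background of the mutants, so genotype and strain cannot be told apart. Labels of mouse 1 disagree on its animal number but share 1 mouse ID. RNA of each mouse was hybridised against the pool on 4 two-colour cDNA arrays, 2 with the mutant in Cy5 and 2 with the mutant in Cy3, which gave 16 arrays. Arrays of 1 mouse share their RNA, so n is 4 mice. The control is a single pool, which gives no spread between wild-type mice.

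In the mouse kidney, testosterone reaches proximal tubule cells and acts there through response elements in the DNA. Male mice have larger tubule cells than females, and a set of transcripts is higher in males and falls after castration. Kap, the kidney androgen-regulated protein, is a classical marker of this response. Odc1, ornithine decarboxylase, makes putrescine, the first step of polyamine synthesis, and is strongly induced by androgen in mouse kidney. Cyp2d9 is a cytochrome P450 that hydroxylates testosterone and is male-predominant in mouse liver. Hsd3b4 belongs to the 3-beta-hydroxysteroid dehydrogenases and was described in mouse as a reductase of 3-ketosteroids such as dihydrotestosterone.

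The promoters of the 3 measured genes are shown because the members are grouped by their response to a transcription factor. Each runs 5′ to 3′ from 250 bases before to 50 bases after the start in RefSeq (GRCm38.p6), and capitals mark the hexamer AGAACA or its reverse complement TGTTCT, a unit of the androgen response element. The windows are chr15:82452127-82452426 on the plus strand for Cyp2d9, chr3:98510518-98510817 on the minus strand for the first of 2 listed starts of Hsd3b4, and chr12:17544623-17544922 on the plus strand for Odc1.
Cyp2d9: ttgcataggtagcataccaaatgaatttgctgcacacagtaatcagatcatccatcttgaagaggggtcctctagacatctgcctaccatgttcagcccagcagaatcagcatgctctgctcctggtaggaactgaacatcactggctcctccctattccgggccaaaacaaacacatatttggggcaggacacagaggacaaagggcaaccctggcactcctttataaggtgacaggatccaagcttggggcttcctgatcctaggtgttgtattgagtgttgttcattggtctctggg
Hsd3b4: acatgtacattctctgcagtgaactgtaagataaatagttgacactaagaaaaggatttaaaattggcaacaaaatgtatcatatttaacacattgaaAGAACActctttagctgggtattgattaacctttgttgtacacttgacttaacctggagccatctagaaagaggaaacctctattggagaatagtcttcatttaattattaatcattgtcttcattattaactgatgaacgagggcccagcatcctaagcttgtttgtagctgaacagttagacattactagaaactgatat
Odc1: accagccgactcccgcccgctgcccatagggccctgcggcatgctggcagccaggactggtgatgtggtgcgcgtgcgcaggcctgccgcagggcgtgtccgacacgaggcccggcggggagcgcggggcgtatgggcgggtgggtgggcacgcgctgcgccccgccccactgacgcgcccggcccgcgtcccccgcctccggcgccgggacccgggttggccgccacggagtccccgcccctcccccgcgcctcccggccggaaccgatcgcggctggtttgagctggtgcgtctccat

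Of these windows only that of Hsd3b4 held the hexamer, with 1 copy that begins at base 99 of the 300 shown. Its second start shares that copy. Among 32851 promoter windows of 300 bases, 19% held at least 1 hexamer on either strand. The full element, AGAACA followed after 3 bases by TGTTCT, was in none of the windows of the 3 genes and in 3 of the 32851. The windows differ in base composition. That of Odc1 is 78% G and C with 42 CpG dinucleotides, against 49% and 1 for Cyp2d9 and 33.7% and 1 for Hsd3b4. The medians over all windows are 52.7% and 7. A match is a description of the letters, and these data hold no binding measurement.

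The values are log2 ratios of mutant over pool, centred on the median of each array. Neither the direction nor the log base is stated, and both are inferred. Direction was taken from channel 1, which by the labels held the mutant RNA under either dye. If all signs were turned, every positive ratio in the text would be negative. Read as Cy5 over Cy3, the mean log2 ratios would be 0.01 for Cyp2d9, 0.10 for Hsd3b4 and 0.20 for Odc1. Ratios hold no level, so the genes cannot be ranked by abundance, and the presence of proximal tubule transcripts cannot be checked. In whole kidney RNA, fewer cells of a type and less RNA per cell cannot be told apart. Arrays had 19737 to 20228 values, and deposited array medians lay between -0.15 and 0.10. The targeted gene Hsd17b4 had 2 probes that disagreed, at -0.91 ± 0.80 and 0.43 ± 0.34 (SD, n = 4). Which exons these probes detect is unknown here, and they cannot serve as a check of the genotype.

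Cyp2d9 and Hsd3b4 had positive ratios in all 4 mice, and Odc1 had negative ratios in all 4. The set as named thus held ratios of both signs. Of 15856 rows measured in 4 mice, 10% were positive in every mouse and 9.42% were negative in every mouse.

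In mice 1 to 4, Cyp2d9 stood at 0.53, 0.43, 0.59 and 0.56 on the log2 scale. The mean was 0.53 ± 0.07 (SD, n = 4), a ratio of 1.44. Over the 16 arrays its values ran from 0.15 to 0.86 with a median of 0.49, so that every array was above 0. Among 14645 rows with a value on all 16 arrays, 0.157% were positive on every one. The orientation made little difference to its mean, which was 0.54 with the mutant in Cy5 and 0.51 with the mutant in Cy3 (limma adjusted p = 0.915 for the dye term).

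Hsd3b4 had 0.46, 0.45, 0.38 and 0.38 in mice 1 to 4. The mean was 0.42 ± 0.04 (SD, n = 4), a ratio of 1.34. The arrays ran from -0.01 to 0.70 with a median of 0.45, and 15 of 16 were above 0. The array below 0 was one of mouse 3 with the mutant in Cy3. For comparison, 0.662% of rows with 16 values were positive on at least 15 arrays. Its orientation means were 0.52 with the mutant in Cy5 and 0.32 with the mutant in Cy3 (limma adjusted p = 0.228 for the dye term).

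Odc1 had -0.28, -0.45, -0.14 and -0.29 in mice 1 to 4. The mean was -0.29 ± 0.13 (SD, n = 4), which is 18.1% below the pool. Its arrays spread more widely, from -0.83 to 0.39 with a median of -0.32, and 12 of 16 were below 0. The 4 arrays above 0 came from mice 1 and 3 with the mutant in Cy5 and from mouse 4 with the mutant in Cy3. Of rows with 16 values, 7.45% were negative on at least 12 arrays. The mean was -0.09 with the mutant in Cy5 and -0.49 with the mutant in Cy3 (limma adjusted p = 0.111 for the dye term), so most of the Odc1 value came from 1 orientation. Over all rows, 8.4% passed the dye test at an adjusted p of 0.05.

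**Figure D1:**
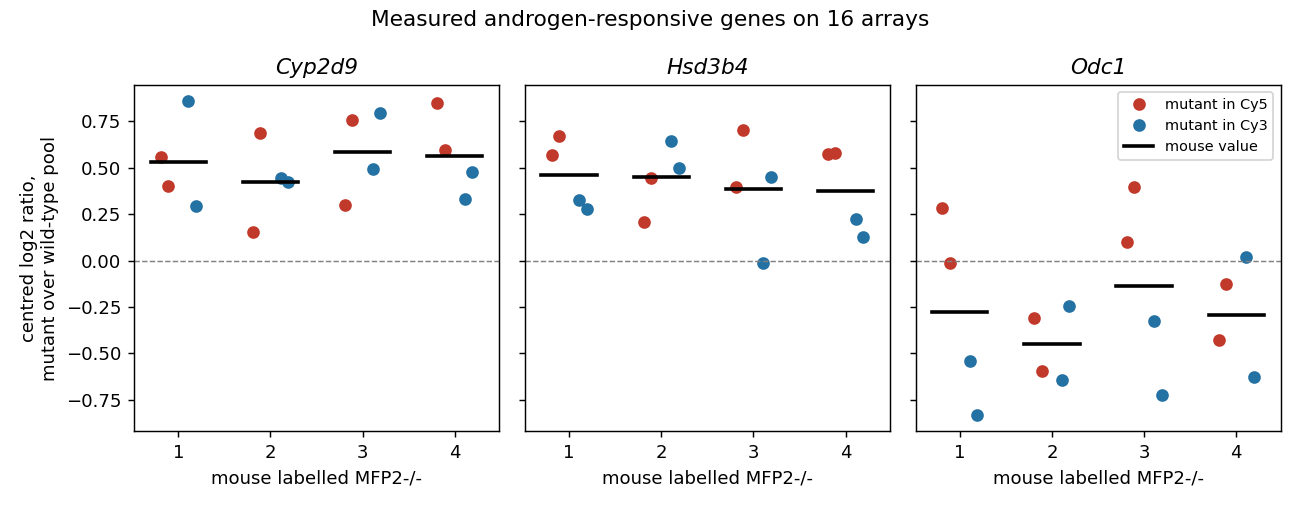
Centred log2 ratio of mutant over wild-type pool (vertical axis) for Cyp2d9, Hsd3b4 and Odc1 in each of the 4 mice labelled MFP2-/- (horizontal axis). Each point is 1 array, red with the mutant in Cy5 and blue with the mutant in Cy3, and black bars are the mouse values: all 16 Cyp2d9 points and 15 of 16 Hsd3b4 points lie above 0, and 12 of 16 Odc1 points lie below it.

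Against the whole table, the 3 genes sat toward the edges of the mean ratio. A mean at least as high as that of Hsd3b4 was seen in 1.67% of all rows, and one at least as high as that of Cyp2d9 in 0.874%. A mean as low as that of Odc1 was seen in 1.68%. The SD between mice was as small as that of Hsd3b4 in 3.4% of rows, as small as that of Cyp2d9 in 11.8% and as small as that of Odc1 in 38.9%. The array-to-array SD left after mouse and dye was 0.21 for Hsd3b4, 0.24 for Cyp2d9 and 0.33 for Odc1. Averaging 4 arrays of that spread gives 0.10, 0.12 and 0.17 for a mouse mean. The SD between mice of 0.04, 0.07 and 0.13 was thus below what arrays alone would give. For Cyp2d9 and Hsd3b4, which were noticed for small p, the small SD is not a measure of precision. Nor are the shares of rows given for the means, SD and array signs of the 3 genes a test. Those shares are taken from the same values and describe where the genes lie in the table.

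**Figure D2:**
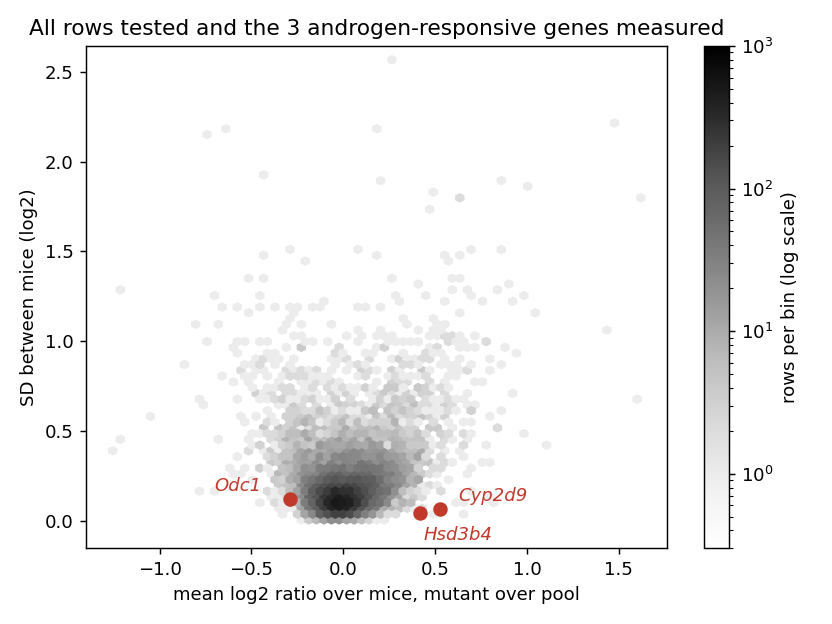
Mean log2 ratio over mice (horizontal axis) against the SD between mice (vertical axis) for all 16140 rows tested, shaded by rows per bin on a log scale, with the measured members in red. Cyp2d9 (0.53, SD 0.07) and Hsd3b4 (0.42, SD 0.04) lie at the lower right edge and Odc1 (-0.29, SD 0.13) at the left edge.

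No test of differences between mice is given for the 3 genes. Such a test reads the same SD between mice that enters the p for which Cyp2d9 and Hsd3b4 were noticed. Over all rows, limma's F-test between mice, with dye as a term, passed 30 of 15856, or 0.189%. The count was 5, 12, 7 and 13 without mouse 1, 2, 3 and 4.

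The order of the mice differed between members, within an array spread larger than the gaps. Mouse 2 had the lowest value of the 4 for Cyp2d9 and for Odc1, and the second highest for Hsd3b4. With each orientation's mean removed, the correlation over the 16 arrays was 0.37 between Hsd3b4 and Cyp2d9, 0.10 between Hsd3b4 and Odc1 and -0.15 between Odc1 and Cyp2d9. These points share arrays, mice and the pool, and are a description. Of 9064 other genes with a value on all arrays, those most like Cyp2d9 were Map3k3 (r = 0.82), Rnf130 (0.77) and Otulin (0.76). Those most like Hsd3b4 were Defb36 (0.85), Numa1 (0.82) and Cpsf6 (0.81), and those most like Odc1 were St7l (0.77), F12 (0.75) and Tshz2 (0.74). Mean log2 ratios of these 9 genes lay between -0.14 and 0.11. The measure removes the mean by its construction and so says nothing of the ratio against the pool. An r above 0.5 was held by 2.75% of the compared genes for Cyp2d9, 4.8% for Hsd3b4 and 2.2% for Odc1.

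Cyp2d9 belongs to a cluster of closely related Cyp2d genes, and a cDNA probe can also bind transcripts of close relatives. Probe sequences were not used here, so how far each probe does so was not tested. Of 8 relatives named, 5 were measured, and all 5 means were positive, with a median log2 ratio of 0.17 against 0.00 over all rows. Cyp2d26 had 0.32, 0.52, 0.45 and 0.21 in mice 1 to 4, with a mean of 0.38 ± 0.13 (SD, n = 4). Its 2 probes had means of 0.28 and 0.48. Cyp2d12 had 0.21, 0.38, 0.45 and 0.28, with a mean of 0.33 ± 0.11. Both were positive in every mouse.

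Cyp2d10 had a mean of 0.17 ± 0.07 (SD, n = 4), Cyp2d22 had 0.07 ± 0.07 and Cyp2d40 had 0.01 ± 0.10. Cyp2d40 alone of the 5 relatives had mice on both sides of 0. None of the 5 passed limma's test, with adjusted p from 0.548 to 0.969, where 0% of all rows passed. At an unadjusted p of 0.05, 3 of the 5 (Cyp2d26, Cyp2d12 and Cyp2d10) were higher, against 5.83% of all rows, and 9.04% of all rows passed in either direction. A limma fit of the 16 single arrays, in which mouse was a random block, called 221 of all rows, or 1.37%, and gave Cyp2d12 and Cyp2d26 adjusted p of 0.0171 and 0.0224. Its estimated correlation within a mouse was 0.04, so that it counts arrays of 1 RNA almost as separate replicates, whereas over the 4 mice both adjusted p were 0.548.

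Hsd3b4 likewise has relatives, and RefSeq lists Hsd3b4 as a synonym of a second gene near it, Gm10681. The annotated probe is assigned to Hsd3b4, and whether it also binds transcripts of Gm10681 was not tested. Of 6 other Hsd3b genes named, 4 were measured. Hsd3b3 had 0.09, 0.37, 0.02 and 0.27 in mice 1 to 4, a mean of 0.19 ± 0.16 (SD, n = 4), and its probes had 0.24 and 0.14. Hsd3b2, with 0.04 ± 0.19, and Hsd3b1, the form known from steroid-producing glands, with 0.11 ± 0.32, had mice on both sides of 0.

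Hsd3b7, which acts on bile acid precursors, had a mean of -0.13 ± 0.20 (SD, n = 4). That mean joined -0.60 with the mutant in Cy5 and 0.33 with the mutant in Cy3 (limma adjusted p = 0.0383 for the dye term). None of the 4 passed the test against the pool, with limma adjusted p from 0.553 to 0.878, where 0% of all rows passed. The family median was 0.08, and 1 of the 4 was positive in every mouse, against 10% of rows measured in 4 mice.

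**Figure D3:**
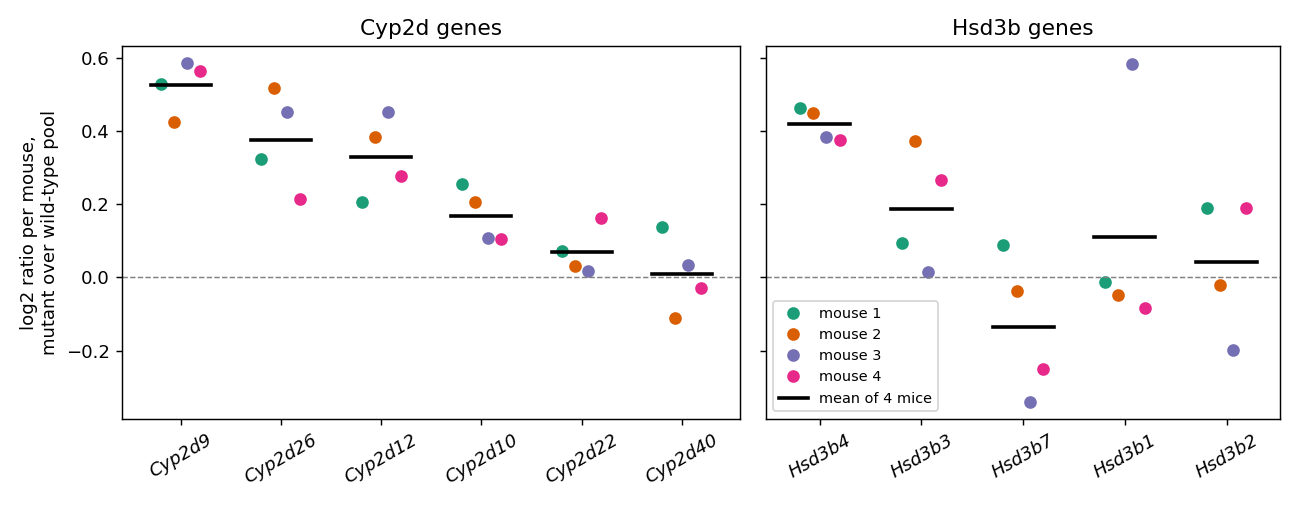
Log2 ratio per mouse, mutant over wild-type pool (vertical axis), for Cyp2d9 and its 5 measured relatives (left) and for Hsd3b4 and its 4 measured relatives (right). Colours are mice and black bars the mean of 4 mice. Of the relatives, 4 of 5 Cyp2d genes and 1 of 4 Hsd3b genes (Hsd3b3) lie above 0 in every mouse. Of all rows measured in 4 mice, 10% do. Cyp2d9 and Hsd3b4 also do, but were noticed in this comparison and are not counted.

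Other genes known to be induced by androgen in mouse kidney, or higher in males, were mostly on the positive side. Of 20 named, 9 were measured and 8 had a positive mean, against 50.1% of all rows. Their median log2 ratio was 0.15, against 0.00 over all rows, and the medians were 0.07, 0.23, 0.09 and 0.26 in mice 1 to 4. None of the 9 passed limma's test (adjusted p from 0.548 to 0.956), where 0% of all rows passed. Unadjusted, 2 were higher and 0 lower, where 5.83% of all rows were higher and 3.21% lower.

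Sat1, the acetyltransferase that starts polyamine breakdown, had 0.18, 0.79, 0.24 and 0.20 in mice 1 to 4, a mean of 0.35 ± 0.29 (SD, n = 4). Cyp7b1, a steroid and oxysterol hydroxylase, had 0.09, 0.72, 0.09 and 0.27, a mean of 0.29 ± 0.30. In both genes mouse 2 stood above the other mice. Slc22a2, an organic cation transporter, had 0.15 ± 0.16, and Adh1, alcohol dehydrogenase, had 0.15 ± 0.20.

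Acsm3, a medium-chain acyl-CoA synthetase, had a mean of 0.21 ± 0.29 (SD, n = 4). It joined -1.02 with the mutant in Cy5 and 1.44 with the mutant in Cy3 (limma adjusted p = 0.00946 for the dye term). Cyp4b1 had 0.49 and -0.21 in the same order (limma adjusted p = 0.00647). With the mutant in Cy3 alone the median of the 9 genes was 0.03. Nudt19, known earlier as the androgen-regulated transcript RP2, was the 1 measured gene with a negative mean, at -0.11 ± 0.16. Agt, angiotensinogen, had 0.13 ± 0.36 and Slc22a6, an organic anion transporter, 0.02 ± 0.18.

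Markers of the proximal tubule were also mostly on the positive side. Of 12 markers named, 8 were measured and 7 had a positive mean, against 50.1% of all rows. Their median was 0.24, with mouse medians of 0.03, 0.39, 0.12 and 0.27. Mice 2 and 4 were thus the highest in both lists. The part of proximal tubule content in the ratios of the androgen-induced genes and of the members was not tested. Unadjusted, 5 of the 8 were higher and 1 lower, against 5.83% and 3.21% of all rows. After adjustment none passed, where 0% of all rows passed. Miox, an oxygenase of inositol breakdown, had the highest mean, 0.66 ± 0.65 (SD, n = 4), with -0.25, 1.25, 0.67 and 0.98 in mice 1 to 4. It also passed limma's F-test between mice (adjusted p = 0.0332), a call kept in 2 of 8 alternatives. Fbp1, of glucose synthesis, had 0.31 ± 0.20. Napsa, a protease, had 0.31 ± 0.11, but its probes disagreed at 0.05 and 0.56. Cubn, an endocytic receptor, had 0.24 ± 0.10, the water channel Aqp1 had 0.24 ± 0.20 and the transporter Slc22a8 had 0.21 ± 0.25. Only Slc34a1, the phosphate transporter, had a negative mean, at -0.20 ± 0.09, and it was negative in all 4 mice. Lrp2 had 0.02 ± 0.21.

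Genes known to be lowered by androgen, or higher in female kidney, were centred near 0. Of 8 named, 4 were measured, with a median log2 ratio of -0.01. Abcc3, a transporter of conjugates, had 0.05 ± 0.08 (SD, n = 4), Cyp4a14 had 0.01 ± 0.07 and Slc22a7 had -0.02 ± 0.17. The Abcc3 mean joined -0.23 with the mutant in Cy5 and 0.33 with the mutant in Cy3 (limma adjusted p = 0.0433 for the dye term). Akr1c18, which inactivates progesterone, had -1.28, -0.36, -0.12 and 0.46 in mice 1 to 4, a mean of -0.33 ± 0.72. Mouse 1 was the lowest and mouse 4 alone was above 0. None of the 4 passed limma's test (adjusted p from 0.689 to 0.953), where 0% of all rows passed. Of the 4, 0 had an unadjusted p under 0.05, against 9.04% of all rows in either direction.

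The polyamine pathway was looked at because Odc1 opens it. Of 20 other pathway genes named, 13 were measured, with a median of -0.04. Means were positive for 5 and negative for 8, where 50.1% of all rows had a positive mean. Ornithine decarboxylase antizymes and antizyme inhibitors set the stability of the Odc1 protein. The antizyme gene Oaz1 was not measured, and the measured genes of this group had means close to 0. Oaz2 had 0.10 ± 0.14 (SD, n = 4), Oaz3 had -0.05 ± 0.13 and Azin2 had -0.04 ± 0.12. Azin1 had 0.01 ± 0.19, from probes at 0.13 and -0.11. That mean joined -0.37 with the mutant in Cy5 and 0.38 with the mutant in Cy3 (limma adjusted p = 0.00784 for the dye term).

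Downstream of Odc1, the synthases Srm and Sms had -0.07 ± 0.23 and -0.12 ± 0.09 (SD, n = 4), with Sms negative in all 4 mice. Dohh, which completes the hypusine residue of the translation factor eIF5A, had -0.17, -0.17, -0.24 and -0.23 in mice 1 to 4, a mean of -0.20 ± 0.04. Its orientation means were -0.04 with the mutant in Cy5 and -0.36 with the mutant in Cy3 (limma adjusted p = 0.0454 for the dye term). Sat1, given above, was the pathway gene with the highest mean. Mtap, which recycles the methylthio by-product, had -0.26, -1.78, 0.22 and 0.21, so that its mean of -0.40 ± 0.95 rests on mouse 2. None of the 13 passed limma's test (adjusted p from 0.548 to 0.991), where 0% of all rows passed. Unadjusted, 1 of the 13 (Sat1) was higher and 1 (Dohh) lower, against 5.83% and 3.21% of all rows. The random-block fit described above called 1.37% of all rows and counts arrays of 1 mouse almost as separate replicates. Its limma adjusted p was 0.0357 for both Sat1 and Dohh.

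Genes of androgen signalling and steroid conversion were mixed. Of 24 named, 12 were measured, 9 with a positive mean, against 50.1% of all rows, and the median was 0.04. Hsd17b3, the enzyme that makes testosterone in testis, had -0.20, -0.20, -0.20 and -0.30 in mice 1 to 4, a mean of -0.23 ± 0.05 (SD, n = 4). Hsd17b10, a mitochondrial dehydrogenase that also oxidises steroids, had 0.30 ± 0.20, with its highest value of 0.59 in mouse 2. Ncoa4, a receptor for ferritin, had 0.26 ± 0.20, but its probes disagreed at 0.53 and -0.01. Cyp11a1, the side-chain cleavage enzyme of steroid synthesis, had -0.15 ± 0.19.

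None of the 12 passed the test against the pool (limma adjusted p from 0.548 to 0.987), where 0% of all rows passed. Unadjusted, 2 of the 12 were higher and 1 lower, against 5.83% and 3.21% of all rows. Star, which delivers cholesterol for steroid synthesis, was the 1 gene of the list past limma's F-test between mice (adjusted p = 0.00916), with 0.20, -0.75, 0.64 and -0.04 in mice 1 to 4. That call was lost without mouse 2 (adjusted p = 0.346), without mouse 3 (0.101) and with values read as Cy5 over Cy3 (0.991). Its orientation means were -0.29 with the mutant in Cy5 and 0.29 with the mutant in Cy3.

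**Figure D4:**
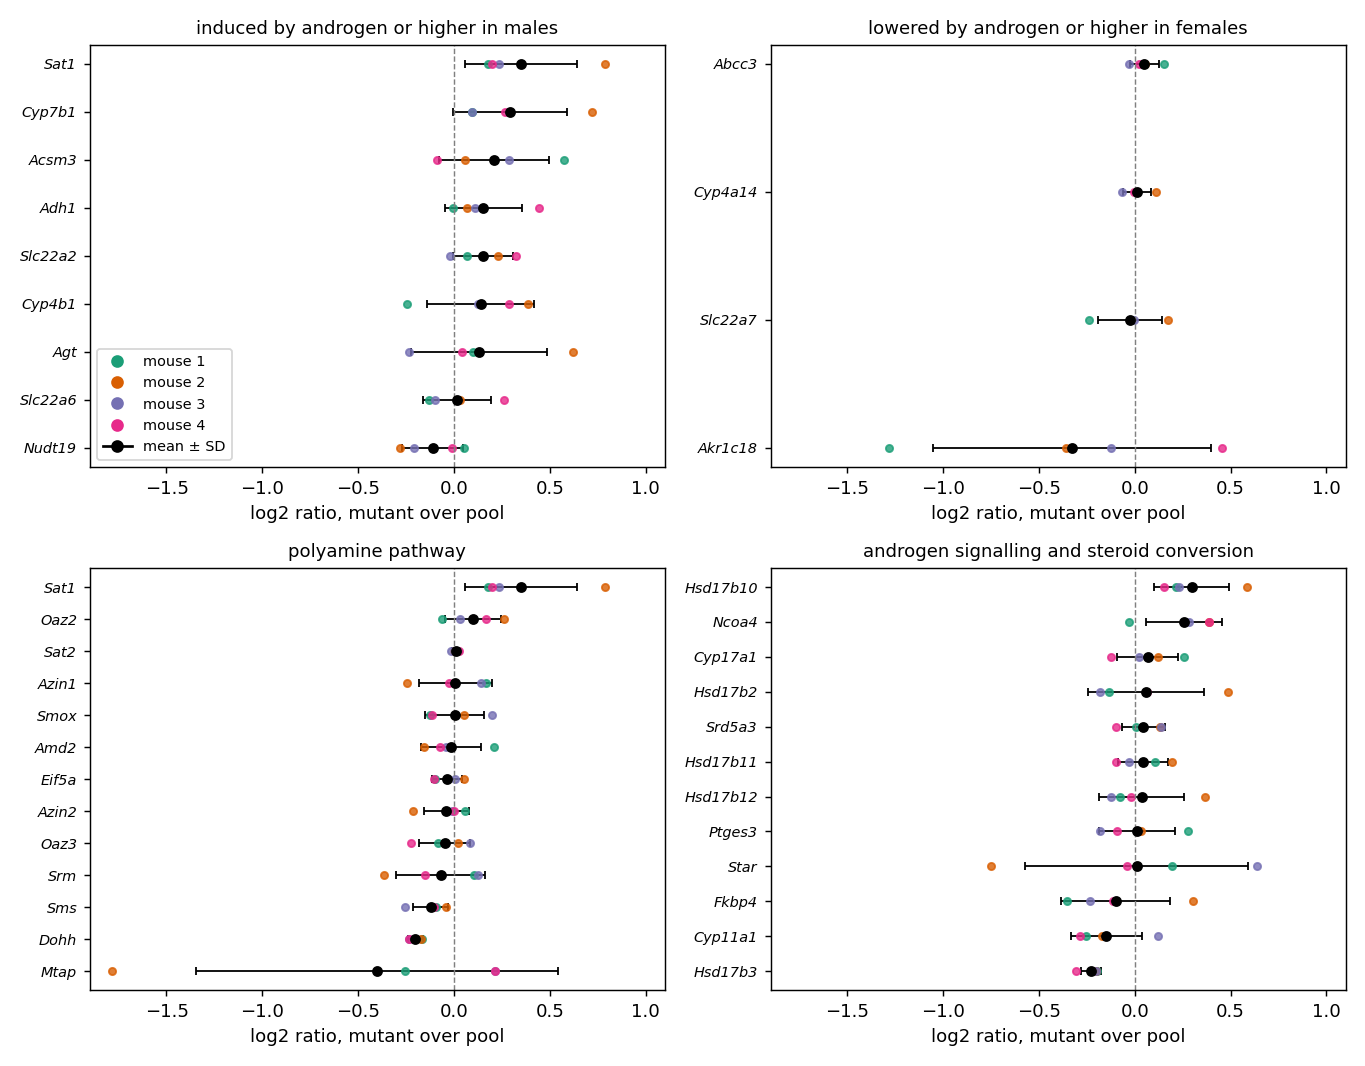
Log2 ratio of mutant over wild-type pool (horizontal axis) for the measured genes of 4 lists known to bear on androgen response (rows). Coloured points are mice and black points with bars the mean ± SD of 4 mice: 8 of 9 androgen-induced genes have a mean above 0, and the polyamine list has 5 of 13 above 0.

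Markers of neighbouring or reproductive tissues were set beside these values. Both measured adrenal markers had positive means, 0.31 ± 0.51 (SD, n = 4) for Cyp21a1 and 0.07 ± 0.33 for Chga, with Cyp21a1 at -1.49 with the mutant in Cy5 and 2.12 with the mutant in Cy3. The 5 measured fat markers had a median of 0.06, and the 3 measured testis and seminal markers 0.03. The 5 measured blood and immune markers were all negative in the mean, with a median of -0.04, and Hba-a1, a haemoglobin gene, had -0.34 ± 0.29 over 6 probes. None of these markers passed limma's test against the pool, where 0% of all rows passed. In the random-block fit, which passed 1.37% of all rows and treats arrays of a mouse almost as replicates, Hba-a1 and the tubule markers Napsa, Cubn, Fbp1 and Miox passed. The part of other tissues in the members' ratios was not tested.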

How the data were processed

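Two-colour cDNA arrays of kidney RNA from 4 mice labelled MFP2-/- against 1 wild-type pool were used. The authors deposited 1 log2 ratio per probe and array. The log2 base and the direction are inferred, and no source used here gives the background correction or normalisation. Probes were named from the old platform annotation, updated by gene identifier through RefSeq (GRCm38.p6): of 20355 probes, 14030 had 1 symbol, 5 several and 6320 none.

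Spots with an absolute value over 10 (510 in all) were treated as missing, and arrays were centred on their medians. A mouse value was the mean of both orientation means, a row needed 3 mice, and probes of a gene were averaged. In R 4.3.3, limma 3.58.1 tested whether the 4-mouse mean differed from 0 (two-sided, moderated by eBayes), and p-values were adjusted by Benjamini-Hochberg over all rows, with a threshold of 0.05. Mouse and dye were tested with limma on 16 arrays in rows with both orientations in all 4 mice. The random block used duplicateCorrelation (statmod 1.5.0). Motifs were searched and figures drawn with Python and matplotlib. The scripts were tested on simulated data.

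The members, lists and tests were chosen with earlier results of these data known. Named genes were the 4 members, the 4 genes with the smallest p of each androgen or polyamine list, all measured relatives, and the 3 genes most like each member. Others were named after their values were seen. The number of mice, 4, and the single control pool limit the precision. Alternatives covered centring, scaling, extreme spots, medians, single orientations and repeats, Cy5 over Cy3, probe and missing-value rules, and leaving out each mouse.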

Additional observations from a re-analysis of the deposited data

Results flagged for a closer look

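Over 31 results with a value in each of 4 mice, 3 had 1 mouse whose gap over the range was above Dixon's critical value. Chance meets this criterion in about 1 of 20 groups, and it takes no account of the spread between arrays. Sat1 was 0.79 in mouse 2, against 0.18 to 0.24 in the other mice. Hsd3b1 was 0.58 in mouse 3, against -0.08 to -0.01 in the other mice. Hsd17b3 was -0.30 in mouse 4, against -0.20 in each of the other mice. In limma's F-test between mice, which uses that spread, none of these 3 genes passed. The adjusted p was 0.111 for Sat1, 0.595 for Hsd3b1 and 0.971 for Hsd17b3. That none of the 3 measured members was flagged is not read as a result. The SD between mice entered the p for which Cyp2d9 and Hsd3b4 were noticed.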

How the results depend on the processing

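Cyp2d9 and Hsd3b4 kept positive means under every alternative run, and Odc1 kept a negative one except when values were read as Cy5 over Cy3. That reading gave 0.0115 for Cyp2d9, 0.10 for Hsd3b4 and 0.20 for Odc1. Hsd3b4 had 0.52 with the mutant in Cy5 alone, 0.32 in Cy3 alone, 0.37 on the first repeat and 0.47 on the second. Odc1 had -0.086 in Cy5 alone and -0.49 in Cy3 alone. The cause of these differences was not tested. No alternative for Kap gave a value. The androgen-induced median was 0.028 in Cy3 alone. The androgen-repressed median was -0.19 in Cy5 alone, 0.0417 in Cy3 alone and 0.00675 with medians of arrays, and -0.0553 to 0.0146 without 1 mouse. The signalling median was -0.0578 in Cy5 alone, -0.0131 on the first repeat and -0.0511 as Cy5 over Cy3, and -0.00196 to 0.0712 without 1 mouse. The polyamine median was 0.0138 as Cy5 over Cy3 and -0.0515 to 0.0158 without 1 mouse. Rows past the threshold against the pool numbered 0, with 1459 at an unadjusted p under 0.05. There were 3 in Cy5 alone, 1 in Cy3 alone, 12 as Cy5 over Cy3 and 221 with the random block. Between mice, 30 became 2 as Cy5 over Cy3, 16 with scaled arrays and 5 to 13 without 1 mouse. Of the recomputed means and medians, 72 stayed within the spread between mice, 10 moved further and 12 turned in sign, and of the recomputed counts 15 stayed close and 10 moved further. Signal over background is unknown, since no intensities were used here.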
